A study of Mus musculus with 384 samples.

Results

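Neutrophils of the mouse spinal cord that held transcripts of Il1b were compared with neutrophils of the same plates in which Il1b was listed at 0. Il1b encodes the precursor of interleukin-1 beta. Both classes were chosen by measured values. A cell was taken as a neutrophil where its TPM (transcript abundance scaled to the same total in each cell) summed to at least 20000 over 10 neutrophil genes (S100a8, S100a9, Retnlg, Ngp, Camp, Ltf, Mmp8, Mmp9, Csf3r and Cxcr2), and its class followed from whether its Il1b value was above 0. Of the 326 cells in the table, 285 met the sum, and 169 of these had Il1b above 0 (called Il1b-positive here) while 116 were listed at 0 (called Il1b-zero). Il1b, the genes of the sum and the granule genes used for adjustment are given as descriptions with no test, because they set the classes.

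All cells of both classes carry the label Optn KO, which names a knockout of optineurin, a protein of selective autophagy and of NF-kB signalling. No cells of another genotype were analysed here, so neither class is a genotype control and the knockout's effect cannot be read from them. The labels give no allele, strain, sex or age for the mice. Per the labels, the cords were dissociated with Accutase and freed of myelin, and cells stained for the leukocyte proteins CD45 and CD11b and for the chemokine receptor CX3CR1 were sorted singly into 4 plates of 96 wells for SmartSeq2, which reads whole cDNAs and has no molecular identifiers. The labels list 384 cells, of which 58 were not analysed here. Plates 1 and 2 belong to replicate 1 and plates 3 and 4 to replicate 2, and n is 2 replicates throughout. Nothing in the labels says whether the replicates are separate mice, so p-values measure only the spread between these 2 samples, which may be technical.

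Interleukin-1 beta is a cytokine of the innate immune response that is made as an inactive precursor. Its gene is switched on through NF-kB downstream of pattern receptors and cytokine receptors, and the precursor is cut by caspase-1 in an inflammasome before it acts on the interleukin-1 receptor. Neutrophils make their granule proteins in the bone marrow in a set order, and the transcripts of the secondary granules (Camp, Ngp, Ltf and Lcn2) are abundant in immature cells and decline as the cells mature.

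Genes of the sum were widespread in both classes, as the rule makes likely. S100a8 and S100a9, the subunits of calprotectin, were above 0 in 100% of both classes. Cxcr2, the neutrophil chemokine receptor, was above 0 in 99.4% of Il1b-positive and 94.8% of Il1b-zero cells, and the growth factor receptor Csf3r in 97.6% and 87.1%. The series title names microglia, but 0 of the 285 neutrophils had 3 or more of 13 microglia markers above 0, which allows up to 1.05% of cells with such listed values by counting error alone, and 7 of those markers, among them Sall1 and C1qa, were listed at 0 in every one. Of 13 monocyte markers, 3 or more were above 0 in 34 Il1b-positive cells (20.1%) and 31 Il1b-zero cells (26.7%), S100a4 and Vcan were at 0 in all, and the list summed to a median of 1224 TPM (0 to 41692) in the first class and 11077 TPM (0 to 40881) in the second. That list includes Ly6c2, above 0 in 68.0% and 98.3% of cells, and Chi3l3, in 33.1% and 83.6%. Cx3cr1 and Ms4a6c were likewise above 0 in a larger share of Il1b-zero cells. Other monocyte markers went the other way. Csf1r was above 0 in 39.6% of Il1b-positive and 8.62% of Il1b-zero cells, Ccr2 in 7.1% and 3.45%, and Fn1 in 2.96% and 0.862%. The part of these genes in the class differences was not tested. The other lists reached 3 markers in 2 Il1b-positive cells, both for B cells, and in no Il1b-zero cell. The table keeps no read depth. The ribosomal RNA precursor Rn45s took a median of 3.73% of TPM in Il1b-positive and 3.68% in Il1b-zero cells of replicate 1, and 3.62% and 3.19% in replicate 2. Optn was listed at 0 in all 285 neutrophils, which without another genotype is a description only.

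Il1b was above 0 in 59.2% of the neutrophils of replicate 1 (77 of 130 cells, exact 95% binomial interval 50.3% to 67.8%) and 59.4% of replicate 2 (92 of 155, 51.2% to 67.2%), a mean of 59.3% ± 0.0877 (SD, n = 2). By plate the share was 58.2%, 60.3%, 53.2% and 65.4% for plates 1 to 4. Each plate held both classes. The intervals cover counting error only. The gene, ENSMUSG00000027398.13, occupies bases 129364570 to 129371139 of chromosome 2 (mm10, GENCODE, minus strand).

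The Il1b-positive cells covered a wide range of Il1b values. On plate 1 their lowest, median and highest values were 1.2, 6858 and 40941 TPM. On plate 2 they were 2.23, 4733 and 47827 TPM. On plate 3 they were 1.65, 5807 and 50269 TPM, and on plate 4 they were 1.83, 9913 and 73572 TPM. Most positive cells were far from the boundary: 131 of the 169 had at least 1000 TPM. A group of 15 cells stood just inside it, with 1.2 to 5.02 TPM, and the next cells had 10.11 and 99.31 TPM. These 15 cells had a median granule mean of 14.73 (mean log2(TPM + 1) of Camp, Ngp, Ltf and Lcn2), against 5.56 in the 154 positive cells of at least 10 TPM. The neutrophil boundary fell between cells of 16361 and 16516 TPM outside and 20455 and 20471 TPM inside. All 14 neutrophils with a sum below 50000 TPM were Il1b-positive.

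High granule transcripts and high Il1b rarely met in 1 cell. The granule mean had a median of 6.08 (0 to 15.45) in Il1b-positive cells and 15.19 (5.6 to 15.81) in Il1b-zero cells, and the medians in replicates 1 and 2 were 5.69 and 6.19 against 15.19 and 15.19. Only 4 Il1b-zero cells lay below the median of the positive class and 7 Il1b-positive cells above the median of the zero class. Ngp, a granule protein of the cathelicidin family, averaged 14563 and 14877 TPM in the Il1b-positive cells of replicates 1 and 2 and 66781 and 74355 TPM in the Il1b-zero cells. Camp, the cathelicidin precursor, averaged 4748 and 4039 TPM against 29396 and 25995 TPM. Retnlg, a resistin-like protein of mature neutrophils, ran the other way, at 27323 and 25109 TPM in Il1b-positive and 15240 and 14879 TPM in Il1b-zero cells. The 2 replicates gave like values for each of these genes, and the replicate averages of the classes did not overlap.

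**Figure D1:**
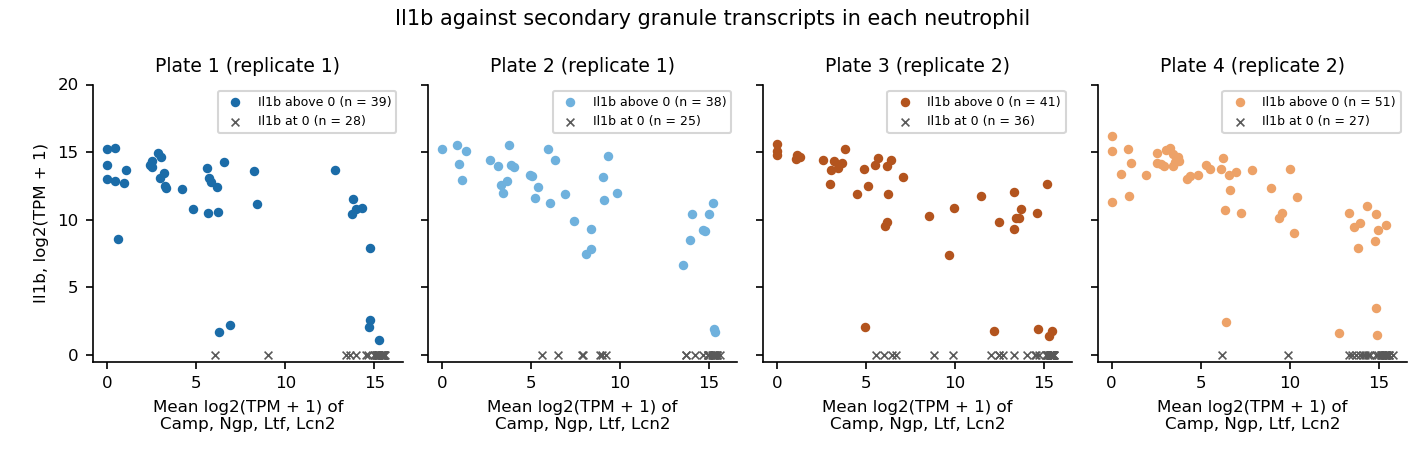
Il1b (y, log2(TPM + 1)) against the mean log2(TPM + 1) of Camp, Ngp, Ltf and Lcn2 (x) in each of the 285 neutrophils, 1 panel per plate, with filled points for Il1b-positive cells and crosses for Il1b-zero cells. The crosses crowd at the right, near 15, and the high Il1b values lie at the left.

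Divided within each plate into 3 classes of equal size by the granule mean, the low class had Il1b above 0 in 92 of 96 cells (95.8%), the middle class in 60 of 95 (63.2%) and the high class in 17 of 94 (18.1%). This order held in each of the 4 plates. Among the positive cells the median Il1b value was 15955 TPM in the low, 1443 TPM in the middle and 569 TPM in the high class. In the high class the medians of plates 1 and 3 were 1.2 and 2.46 TPM and those of plates 2 and 4 were 593 and 613 TPM, from 1, 3, 6 and 7 positive cells in plates 1, 3, 2 and 4. Genes detected moved with the classes too, with a median of 1492 genes per cell in Il1b-positive and 1940 in Il1b-zero cells. The genes of the neutrophil sum took a median of 189199 and 182101 of each 1000000 TPM in the Il1b-positive cells of replicates 1 and 2, and 333179 and 321991 in the Il1b-zero cells, so less of the total was shared by all other genes in the Il1b-zero class. Cells with 3 or more of 9 cell cycle genes above 0 numbered 8 in the Il1b-positive and 17 in the Il1b-zero class.

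**Figure D2:**
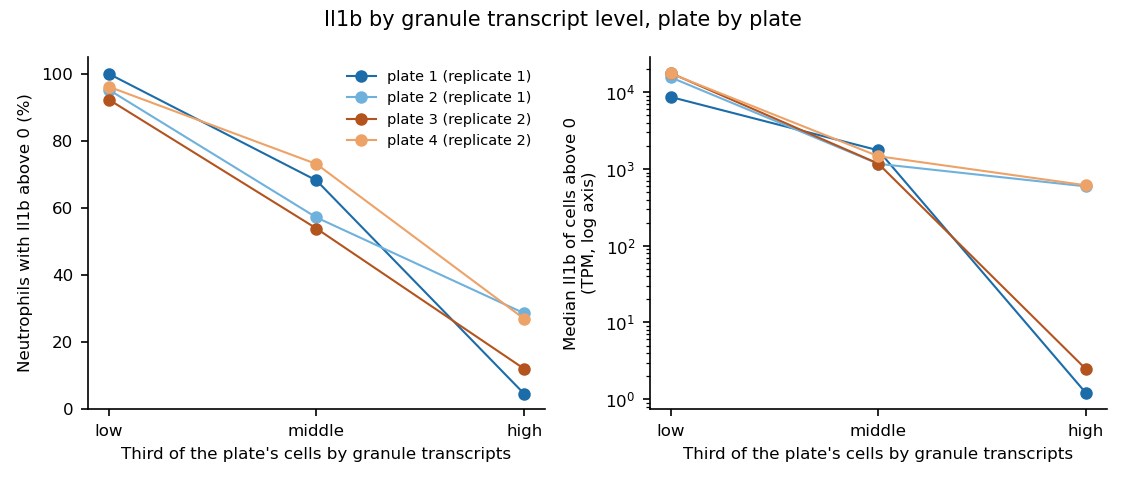
Share of neutrophils with Il1b above 0 (left, percent) and median Il1b of the positive cells (right, TPM, log axis) in the low, middle and high class of granule transcripts, 1 line per plate. The share falls in every plate, from between 92.3% and 100% in the low class to between 4.55% and 28.6% in the high class.

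The main question was which genes differed between Il1b-positive and Il1b-zero neutrophils once granule content was adjusted for. In each plate, log2(TPM + 1) was fitted to the class with log10 genes detected and the granule mean as covariates, the plate differences were averaged per replicate, and the 2 replicate values were tested with limma. Its SE and p-values draw mainly on the spread of other genes, so they can be small where the 2 replicates of a gene differ. Of 4003 genes tested, 31 rose in Il1b-positive cells, which is 0.774% of the genes tested, and 6 fell, which is 0.15% (Benjamini-Hochberg adjusted p under 0.05). The 31 genes included the receptors Trem1, Fpr1, Tlr2 and Clec4e, the cytokines and chemokines Cxcl2, Osm, Ccl6 and Il1f9, and the adhesion gene Selplg. The same sign in all 4 plates was seen for 34 of the 37, which calling genes on the mean of these plates makes likely. Of all genes tested, 10.2% were positive and 8.94% negative in all 4 plates. Without the adjustment 334 genes (8.34%) were called higher and 1122 (28%) lower, and 25 of the 31 rises and 6 of the 6 falls were among them in the same direction. The median difference over all genes tested was -0.33 without the adjustment and 0.033 with it.

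These calls were sensitive to the samples that entered and to the processing. With replicate 2 alone, where plates stand in as the units, 0 genes were called in either direction, and with replicate 1 alone 3 rose and 1 fell. Leaving out plate 1, 2, 3 or 4 gave 3, 2, 8 and 6 rises and 0, 0, 5 and 0 falls. No gene was called with a pseudocount of 0.1 or of 10, without a filter on low values, or without the replicate block, and a squared granule term left 4 rises and 1 fall. Over 23 alternatives that adjusted for or matched on the granule mean, Srgn was called in 16, Trem1 in 12 and Tlr2 in 10, while 15 of the 37 genes were called in 2 or fewer, among them Slfn1 and Rdh12 in 0 and Clec4e, Il1f9, Lta4h and Slc11a1 in 1. On simulated data the same test called more unchanged genes in some sets than its threshold allows.

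Cells were also paired within plate on genes detected and the granule mean, which gave 59 pairs (27 in replicate 1 and 32 in replicate 2). The match on granule transcripts was not exact: the median granule means were 13.76 in Il1b-positive and 14.53 in Il1b-zero cells, with the widest gaps in plate 1 (13.98 and 15.11) and plate 3 (13.31 and 14.53), and the median genes detected 1751 and 1762. All 37 genes had the same sign in the pairs, which describes the same cells in which the genes were selected, and with log2 of the mean TPM no gene was called. For most genes that rose, both the share of cells above 0 and the level among them were higher. The counts that follow describe the same cells in which the genes were selected, which makes high counts likely. The same counts over all genes tested were not taken. Of the 31 genes that rose, 29 were above 0 in more of the matched Il1b-positive cells in both replicates, 25 had the higher matched mean TPM in both (the exceptions were Srgn, Stx11, Cd300ld, Ccl6, Il1f9 and Rdh12, each in 1 replicate), and all 31 had the higher median among the cells above 0 before matching.

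**Figure D3:**
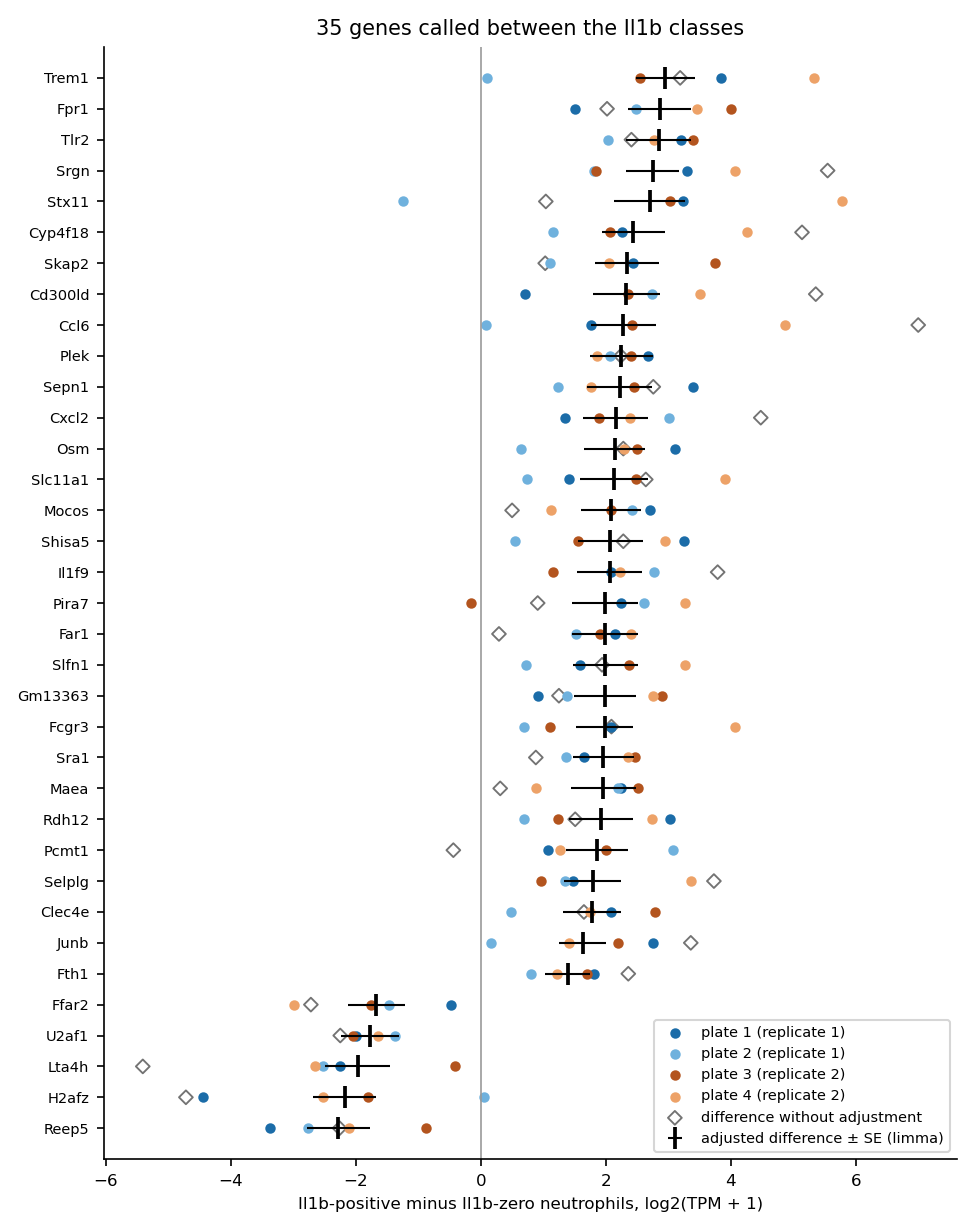
Difference between Il1b-positive and Il1b-zero neutrophils in log2(TPM + 1) for 35 of the 37 called genes. Coloured points are the adjusted differences of the 4 plates, black bars their mean with the SE from limma, and open diamonds the difference without adjustment. Diamonds far from the bars, as for Cd300ld (5.36 against 2.33) and Lta4h (-5.41 against -1.97), mark genes whose difference shrank with the adjustment.

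Among receptors that sense microbes and tissue damage, 4 of 15 tested genes rose, against 0.774% of all genes tested, and none fell, with a median difference of 0.84 against 0.033 over all genes tested. Trem1, an immunoglobulin-like receptor that amplifies Toll-like receptor signals, averaged 1709 and 1590 TPM in Il1b-positive cells of replicates 1 and 2 and 720.5 and 494.6 TPM in Il1b-zero cells. Both positive averages lay above both zero averages. Trem1 rose by 2.95 on the log2 scale (SE 0.47, limma adjusted p = 1.71e-04), but plate by plate the difference was 3.85, 0.093, 2.54 and 5.33, so plate 2 showed almost none. Its replicate values were 1.97 and 3.93, a gap that the SE, pooled mainly from other genes, does not convey. Fpr1, the receptor for formylated peptides of bacteria and mitochondria, averaged 1170 and 1003 TPM against 573.9 and 702.1 TPM and rose by 2.86 (SE 0.50, limma adjusted p = 7.18e-04). Tlr2, the receptor for bacterial lipopeptides, averaged 448 and 445 TPM against 204 and 151 TPM and rose by 2.85 (SE 0.52, limma adjusted p = 0.00107). For Tlr2 the 4 plates were close, at 3.21, 2.03, 3.40 and 2.77, and 45 of 59 matched Il1b-positive cells had it above 0 against 28 of 59 Il1b-zero cells. Clec4e, also called Mincle, a receptor for glycolipids and products of dead cells, rose by 1.78 (SE 0.47, limma adjusted p = 0.0478). The highest values that did not pass the test were 1.67 for its neighbour in function Clec4d, 1.31 for Cd14 and 1.20 for Tlr13. Each had the same sign in 4 plates. Cd14 is the lipopolysaccharide coreceptor, at -0.28 without adjustment, and Tlr13 is a receptor for bacterial ribosomal RNA. Trem3 had 0.84, Fpr2 0.39, Tlr6 0.18 and Tlr8 0.15. Clec4a2, Nod1 and Nod2 lay at -0.23, -0.25 and -0.39. Clec7a, the receptor for fungal beta-glucan, went from 4.06 without adjustment to 0.18 with it.

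Of the tested cytokine and chemokine genes, 3 of 7 rose, against 0.774% of all genes tested, and none fell. Cxcl2, a chemokine that attracts neutrophils through Cxcr2, averaged 2035 and 1256 TPM in Il1b-positive cells against 358.9 and 188.8 TPM in Il1b-zero cells of replicates 1 and 2. It rose by 2.16 (SE 0.52, limma adjusted p = 0.0245), with 1.35, 3.01, 1.89 and 2.39 in plates 1 to 4, and was above 0 in 32 of 59 matched Il1b-positive and 18 of 59 matched Il1b-zero cells. Osm, oncostatin M, a cytokine of the interleukin-6 family, averaged 1861 and 1466 TPM against 709.5 and 556.7 TPM and rose by 2.14 (SE 0.49, limma adjusted p = 0.0145). Ccl6, a CC chemokine of myeloid cells, averaged 4517 and 4124 TPM against 965.8 and 634.7 TPM. It rose by 2.28 (SE 0.52, limma adjusted p = 0.0167), and here plate 2 again had the smallest difference, 0.089 against 1.77 to 4.86 in the others. Among matched cells of replicate 1 the Ccl6 mean was 1769 TPM in Il1b-positive and 1854 TPM in Il1b-zero cells. Il1f9, which encodes interleukin-36 gamma, a relative of interleukin-1 beta, averaged 884 and 835 TPM against 184 and 401 TPM and rose by 2.06 (SE 0.52, limma adjusted p = 0.0331). In the matched cells its mean was 712 against 267 TPM in replicate 1 but 411 against 460 TPM in replicate 2. Tnf did not pass the test (0.41, -0.71 without adjustment). Of the 23 genes of this list that were not tested, Il6, Il12a, Il12b, Ccl2, Ccl5, Ccl7, Ccl12 and Ccl22 were listed at 0 in every neutrophil. The macrophage inflammatory chemokines Ccl3 and Ccl4 were above 0 in too few cells for the test, in 15 and 21 Il1b-positive and 1 and 3 Il1b-zero cells.

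Srgn had the smallest adjusted p of all genes. It encodes serglycin, the proteoglycan that packs proteases and chemokines into granules, and it averaged 5190 and 5322 TPM in Il1b-positive cells against 1309 and 1034 TPM in Il1b-zero cells. Srgn rose by 2.75 (SE 0.42, limma adjusted p = 8.87e-05), with 3.30, 1.81, 1.84 and 4.07 in the 4 plates, and without adjustment by 5.55. In the matched cells its share above 0 was 53 of 59 against 44 of 59, but its mean TPM was 2139 against 2283 in replicate 1 and 2587 against 1722 in replicate 2, so the matched means overlapped. Stx11, a syntaxin of granule secretion, rose by 2.70 (SE 0.57, limma adjusted p = 0.0143) with plate 2 on the other side of 0 (-1.24), and its matched means were 437 against 517 TPM in replicate 1. Of the 4 tested genes of the azurophil and precursor list Srgn alone rose, against 0.774% of all genes tested, and none fell. The other 3 did not pass the test, among them Fcnb at -1.46 and Serpinb1a at -0.15. Without adjustment the 4 genes had a median of -2.62, and with it -0.39, against -0.33 and 0.033 over all genes tested.

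Of the 16 tested genes of the adhesion list 2 rose, against 0.774% of all genes tested, and none fell. The list had a median of 0.55, against 0.033 over all genes tested. Selplg, the selectin ligand PSGL-1, averaged 1602 and 1731 TPM against 456 and 436 TPM and rose by 1.79 (SE 0.46, limma adjusted p = 0.038). The integrin genes Itgam and Itgb2 had values of 0.51 and 0.41 that did not pass the test. Skap2, an adaptor of integrin signalling that was in no list, rose by 2.34 (SE 0.51, limma adjusted p = 0.0143), and Plek, pleckstrin, a substrate of protein kinase C at the cell cortex, rose by 2.25 (SE 0.51, limma adjusted p = 0.0145). For Plek the 4 plates were between 1.86 and 2.68.

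A few receptors that were in no list rose, while relatives of them did not pass the test. Fcgr3, a low-affinity receptor for IgG, averaged 1515 and 1503 TPM against 662 and 711 TPM and rose by 1.98 (SE 0.45, limma adjusted p = 0.0145). Cd300ld, an activating receptor of the CD300 family, averaged 663 and 686 TPM against 151 and 47.0 TPM and rose by 2.33 (SE 0.53, limma adjusted p = 0.0145). Among matched cells of replicate 1, however, its means were 294 and 299 TPM, and the difference lay in replicate 2 (276 and 88.5 TPM). Of their relatives, Fcgr4 had 1.23, Cd300lb 0.23 and Pira6 0.21 (limma adjusted p = 0.302, 0.912 and 0.897). Pira7 rose by 1.99 with plate 3 at -0.15. It belongs to a family of near-identical paired receptors, so reads may have been divided among its copies, and the same holds for the processed pseudogene Gm13363, which was called higher by 1.99.

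Iron genes had the highest adjusted median of all lists, 1.06 over 6 tested genes, against 0.033 over all genes tested. In the matched cells their median was 0.64, below the 0.90 of the receptors that sense microbes and tissue damage. Of the 6 genes 2 rose, against 0.774% of all genes tested, and none fell. Fth1, the heavy chain of ferritin, averaged 10290 and 8036 TPM in Il1b-positive cells and 2955 and 3022 TPM in Il1b-zero cells, and rose by 1.39 (SE 0.36, limma adjusted p = 0.0437). Since Fth1 was above 0 in 99.4% and 94.8% of cells, this difference lay in its level. Slc11a1, a transporter that draws metals out of phagosomes, averaged 273 and 433 TPM against 78.9 and 59.5 TPM and rose by 2.13 (SE 0.55, limma adjusted p = 0.0414). The iron exporter Slc40a1 missed the test at 1.87 (adjusted p = 0.0583, limma), and the ferritin light chain Ftl1 had 0.74. The remaining tested genes of the list, Hmox1 and Ireb2, had -0.008 and -0.066.

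Immediate early genes, which cells switch on within minutes of a stimulus and also during tissue dissociation, differed mainly before adjustment. The list of 21 tested genes had a median of 1.91 without and 0.45 with the adjustment, against -0.33 and 0.033 over all genes tested. In the list 1 gene rose, against 0.774% of all genes tested, and none fell. Junb, a subunit of the AP-1 transcription factor, averaged 7431 and 8388 TPM against 2239 and 2052 TPM and rose by 1.63 (SE 0.38, limma adjusted p = 0.0167). Dusp1, a phosphatase that turns off MAP kinases, had 1.53 (adjusted p = 0.0583, limma) and fell short of the threshold, and Fos had 0.45. With the mean of the immediate early genes as a further covariate, 0 genes were called in either direction, with 354 at an unadjusted p under 0.05, and all 37 kept their sign. The part of dissociation in these values was not tested.

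Most of the other genes that rose were in no list. Cyp4f18, the hydroxylase that inactivates leukotriene B4, averaged 1456 and 1525 TPM against 562 and 615 TPM and rose by 2.44 (SE 0.50, limma adjusted p = 0.00764). Sepn1, a selenoprotein of the endoplasmic reticulum, rose by 2.22, Shisa5, a membrane protein there, by 2.07, Mocos, the molybdenum cofactor sulfurase, by 2.09 and the retinol dehydrogenase Rdh12 by 1.92. Slfn1, a schlafen gene, was the 1 gene of 12 tested interferon-induced genes to pass, at 1.99, where 0.774% of all genes tested rose. Further rises were Far1, an enzyme of fatty alcohol synthesis, at 1.99, Maea, a subunit of a ubiquitin ligase, and Sra1, each at 1.96, and Pcmt1, an enzyme that repairs aged proteins, at 1.86. Pcmt1 was at -0.44 without adjustment, the 1 called gene whose sign differed between the fits. Far1, Maea, Mocos and Sra1 had 0.29, 0.31, 0.50 and 0.88 without adjustment and did not pass the test there. Cyp4f18, Sepn1, Shisa5, Rdh12 and Slfn1 did pass it without adjustment.

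The 6 genes that fell were led by Reep5, a membrane-shaping protein of the endoplasmic reticulum. It averaged 34.0 and 29.6 TPM in Il1b-positive and 84.3 and 58.9 TPM in Il1b-zero cells of replicates 1 and 2, and fell by 2.28 (SE 0.51, limma adjusted p = 0.0145). In the matched cells Reep5 was above 0 in 12 of 59 against 28 of 59. Lta4h, the enzyme that makes leukotriene B4, averaged 150 and 117 TPM against 737 and 924 TPM and fell by 1.97 (SE 0.52, limma adjusted p = 0.0478). Ffar2, a receptor for short-chain fatty acids, was above 0 in 3.55% of Il1b-positive and 39.7% of Il1b-zero cells and fell by 1.67 (SE 0.45, limma adjusted p = 0.0492). Also lower were the splicing factor U2af1 at -1.77 and H2afz, a histone variant, at -2.18, the last with plate 2 at 0.046. Neither Alox5 nor its partner Alox5ap, which act before Lta4h, passed the test (1.33 and 0.25).

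Among the genes of the interleukin-1 system, 0 of 18 tested genes passed the test between the classes. Of all genes tested 0.774% rose and 0.15% fell, so 0 calls in 18 genes do not set this list apart. Il1f9 was not in this list. The list had a median of 0.085 against 0.033 over all genes. Il1rn, the receptor antagonist, averaged 767 and 631 TPM in Il1b-positive and 227 and 281 TPM in Il1b-zero cells. The 2 positive averages were above both zero averages, yet the adjusted difference was 1.41 (SE 0.54, limma adjusted p = 0.237), with 2.51 in replicate 1 and 0.31 in replicate 2. Il1r2, the decoy receptor, averaged 1239 and 1255 TPM against 510 and 573 TPM and had an adjusted difference of 0.53 (SE 0.47, limma adjusted p = 0.708). Nlrp3, the inflammasome sensor, was above 0 in 57.4% of Il1b-positive and 13.8% of Il1b-zero cells and averaged 165 and 196 TPM against 14.6 and 27.4 TPM. Its difference was 3.11 without adjustment and 0.79 with it (SE 0.52, limma adjusted p = 0.568).

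Downstream parts of the inflammasome were above 0 in a minority of cells of both classes. Casp1, the protease that cuts the precursor, was above 0 in 8.88% and 14.7% of cells (adjusted difference 0.09), and Pycard, the adaptor between sensor and caspase, in 10.1% and 27.6% (-0.47). Gsdmd, the pore-forming gasdermin, was above 0 in 35.5% and 36.2% (0.57). Of the signalling genes below the receptor, Myd88 had 0.43, Irak2 0.64, Irak3 0.68, Irak4 -0.02 and the inhibitor Tollip -0.92. The alarmin Il1a and the signalling receptor Il1r1 were listed at 0 in all 285 neutrophils, where a listed 0 may be a failed estimate, and Il18 was above 0 in 5 Il1b-positive cells and 1 Il1b-zero cell.

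In several lists the unadjusted medians lay far from 0, while no member passed the adjusted test. Of all genes tested 0.774% rose and 0.15% fell, so 0 calls do not set lists of these sizes apart. The 12 tested granule genes beyond those of the adjustment had a median of -2.26 without and 0.30 with it. The 20 respiratory chain genes went from -1.77 to -0.54, with 7 of the same negative sign in all 4 plates and none of the positive. The 77 cytosolic ribosomal protein genes went from -1.21 to -0.61, with 16 negative and 1 positive in all 4 plates, against 8.94% negative and 10.2% positive of all genes tested. Glycolytic genes lay on the other side after adjustment, with a median of 0.60 over 21 genes (0.62 and 0.60 in the replicates). Of these, 7 were positive in all 4 plates, and Slc16a3, the lactate exporter, had 1.51 (limma adjusted p = 0.0941). In the matched cells, however, the glycolytic median was 0.10, against 0.018 over all genes tested. The matched medians of the granule, respiratory chain and ribosomal lists were -0.12, -0.52 and -0.43. The oxidative burst genes were at a median of 0.021. Of the 20 tested receptors for chemoattractants and cytokines none passed, among them Ccr1 at 1.47 (limma adjusted p = 0.185) and Csf1r, the receptor of macrophage growth factor, at 1.23 (limma adjusted p = 0.252), which was above 0 in 39.6% of Il1b-positive and 8.62% of Il1b-zero cells. Of 8 tested cell cycle genes H2afz alone passed, as a fall, against 0.15% of all genes tested that fell. Mki67, which marks dividing cells, had -0.24. The lists for heat shock, regulators of myeloid transcription, antigen presentation, RIPK1 and cell death, and autophagy receptors and lysosome also had 0 calls, with medians from -0.016 to 0.26.

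**Figure D4:**
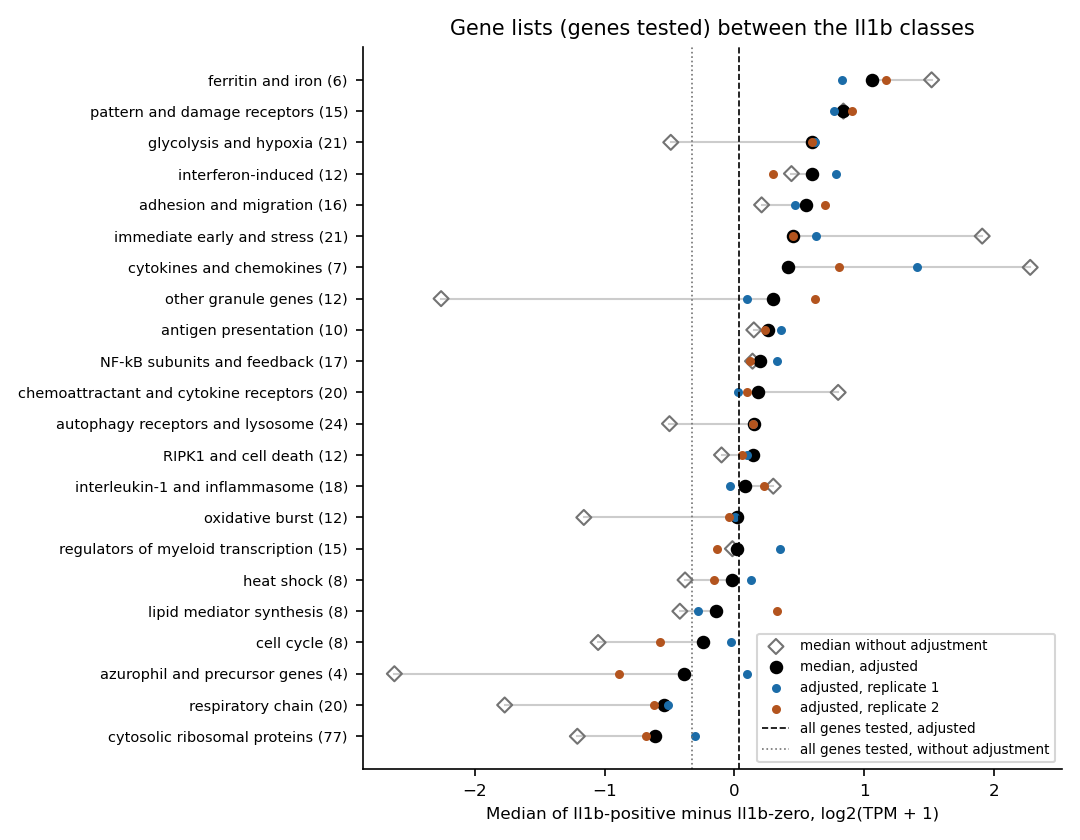
Median difference between the Il1b classes in log2(TPM + 1) for each gene list, with the number of tested genes in brackets. Black points are adjusted medians, small points the replicates, diamonds the medians without adjustment, and vertical lines the medians over all genes tested. The ferritin and receptor lists lie highest at 1.06 and 0.84, and the respiratory chain and ribosomal lists lowest at -0.54 and -0.61.

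A second comparison stayed within the Il1b-positive cells and asked which genes changed with the level of Il1b, as the slope of log2(TPM + 1) per unit of log2(Il1b TPM + 1) with the same covariates. Of the 4003 genes, 11 had a positive slope past the threshold, which is 0.275% of the genes tested, and 3 a negative one, which is 0.0749%. The positive set included Ppp1r15a, which restarts translation after stress, with 0.48 (SE 0.09, limma adjusted p = 0.00113), Nfkbia, the inhibitor that NF-kB itself induces, with 0.47 (SE 0.10, limma adjusted p = 0.00454), and Nfkbiz, its nuclear relative, with 0.46 (SE 0.11, limma adjusted p = 0.0182). Nfkbia was even across plates, at 0.55, 0.31, 0.42 and 0.59. Ccrl2, an atypical receptor that binds chemerin, had 0.48, and Il18rap, a chain of the interleukin-18 receptor, had 0.46 with 0.49, 0.46, 0.46 and 0.42 in the 4 plates. Cxcl2 had 0.46 and Srgn 0.29, and these were the 2 genes called in both comparisons.

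The remaining positive slopes were those of Csrnp1, a nuclear protein of the immediate early kind (0.43), Tpm4, a tropomyosin (0.43), Mgst1, a glutathione transferase of membranes (0.40, with plate 1 at -0.023), and B2m, the light chain of MHC class I (0.30). Pofut2, a fucosyltransferase (-0.27), and Heca (-0.22, with plate 1 at 0.013) had negative slopes. Of the NF-kB list 2 of 17 tested genes passed with a positive slope, against 0.275% of all genes tested. Between the classes 0 passed, where 0.774% of all genes tested rose and 0.15% fell, and the list had a median of 0.20. Nfkbia had 1.03 (limma adjusted p = 0.406) and Tnfaip3, a deubiquitinase that ends NF-kB signalling, 1.32 (limma adjusted p = 0.234). These 2 were among the highest values of the list, and Nfkb1 (-0.59) and Rela (-0.56) were the lowest. Whether a gene's slope differs from its class difference was not tested. With 1 replicate left out, 0 positive slopes passed without replicate 1 or without replicate 2, and 1 and 0 negative ones. With Il1b of at least 10 TPM, which leaves out the 15 cells just inside the boundary, 11 positive and 4 negative slopes passed, and 7 of the 14 genes were among them. The 14 slopes kept their sign under each alternative in which they were tested.

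**Figure D5:**
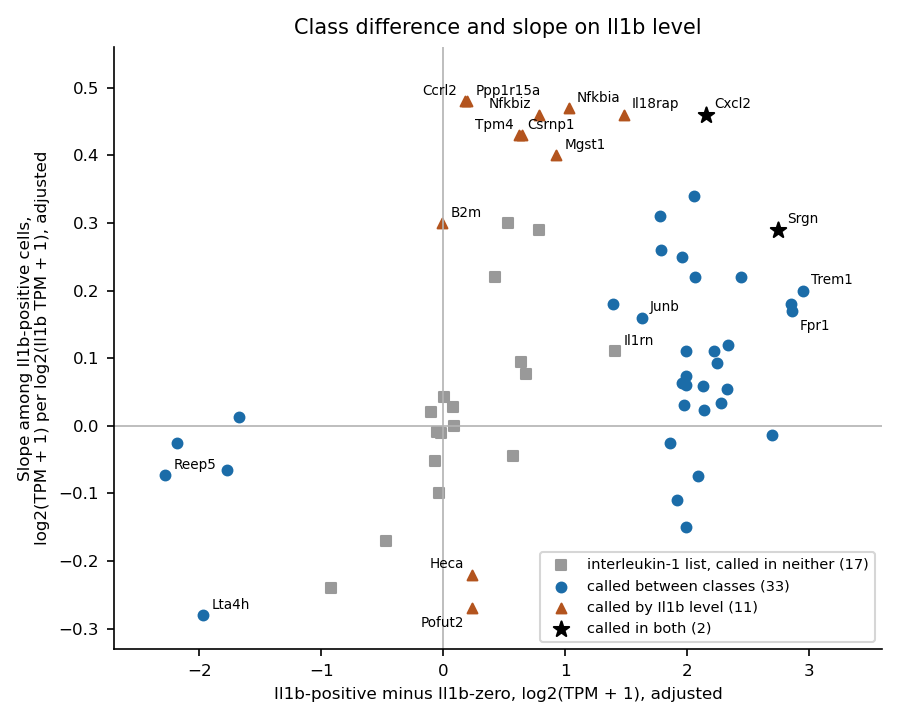
Adjusted slope on Il1b level among Il1b-positive cells (y, log2(TPM + 1) per log2(Il1b TPM + 1)) against the adjusted class difference (x, log2(TPM + 1)) for genes called in either comparison, without those not reported here, and for the interleukin-1 list. Cxcl2 and Srgn, the stars, are called in both, while Nfkbia, Nfkbiz, Ppp1r15a and Ccrl2 have slopes from 0.46 to 0.48 and class differences of 1.03 or less.

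A further comparison tested whether the class difference itself changed with the granule mean. No gene passed in either direction (0% of the genes tested higher and 0% lower, limma), with 391 genes at an unadjusted p under 0.05 and a smallest adjusted p of 0.469. That value was shared by genes that include A530064D06Rik (0.97 log2 units per unit of the granule mean), Clec4e (0.77) and Tarm1 (0.76), a receptor of myeloid cells.

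Promoter sequence was set beside the slopes because NF-kB binds sites of known form. The search was for the core GGNNTTTCC, read on both strands, from 250 bases before to 50 after each start in the RefSeq promoter table (GRCm38.p6), where 5.82% of 32851 promoters hold it. Of the 14 genes called on the slope 12 had an entry, and 5 of these, in 5 of their 19 promoters, held the letters: B2m, Ccrl2, Cxcl2, Il18rap and Nfkbia. Of the 37 class genes 25 had an entry and 4, in 5 of 37 promoters, held them: Cxcl2, Fcgr3, Pcmt1 and Shisa5. The AP-1 form TGANTCA, present in 7.81% of promoters, was found for Csrnp1 in the slope set and Ffar2 in the class set. A match describes the letters and is not evidence of binding, and the shares were not tested. The stretches of the 5 slope genes follow, each read 5′ to 3′ on the strand of its gene, with the core of 9 bases in capitals, 20 bases before it and up to 20 after it. They are shown so that the cores can be compared.
Cxcl2 (chr5:90903783-90903850, plus strand): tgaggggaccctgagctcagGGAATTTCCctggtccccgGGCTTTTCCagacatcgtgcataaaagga
Nfkbia, far (chr12:55492797-55492845, minus strand): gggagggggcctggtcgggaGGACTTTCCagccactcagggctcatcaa
Nfkbia, near (chr12:55492648-55492696, minus strand): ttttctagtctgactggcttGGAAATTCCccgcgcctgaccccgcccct
Ccrl2 (chr9:111057558-111057606, minus strand): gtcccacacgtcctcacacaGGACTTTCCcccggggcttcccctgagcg
Il18rap (chr1:40515323-40515361, plus strand): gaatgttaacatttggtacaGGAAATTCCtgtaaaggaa
B2m (chr2:122147541-122147589, plus strand): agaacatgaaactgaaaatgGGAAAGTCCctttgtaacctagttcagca

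Cxcl2 and Nfkbia each held 2 cores, which began 96 and 77 bases before the start in Cxcl2 and 178 and 29 bases before it in Nfkbia. In Ccrl2, Il18rap and B2m the core began 68, 19 and 126 bases before the start. In B2m, Il18rap and the near stretch of Nfkbia the core lies on the opposite strand, so that the capitals show its reverse complement. Il1b itself had no match in this window. Its last 100 bases before the start are given for comparison and have no capitals.
Il1b (chr2:129371140-129371239, minus strand): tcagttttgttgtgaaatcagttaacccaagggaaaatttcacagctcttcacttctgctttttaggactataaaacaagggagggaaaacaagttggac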

How the data were processed

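Single sorted cells were measured by SmartSeq2. The authors deposited TPM values for 23420 genes, which sum to 1000000 in each cell. RSEM and mm10 come from the submitters' processing notes, and which aligner, versions and annotation were used is not given in the sources used here. Depth is therefore unknown, genes above 0 stand in for it, and a listed 0 may be a failed estimate. Genes above 0 in at least 10% of neutrophils with a mean of at least 5 TPM were tested on log2(TPM + 1), which understates changes of low genes, without the 12 genes that set the classes or the adjustment. Plate estimates came from least squares (Python 3.11.15, numpy 2.4.6) and were averaged per replicate. They were tested with limma 3.58.1 (R 4.3.3, intercept only, trend and robust options) with Benjamini-Hochberg adjustment at 0.05. With 1 residual degree of freedom the test leans on the spread limma pools over genes. Simulated cells had a linear granule effect, no plate or replicate differences, and shifts added above the floor at 0. The fit recovered these shifts, which that setting makes likely, so the recovery does not extend to real cells with many listed zeros and unlike replicates. In some simulated sets the test called more unchanged genes than its threshold allows, which a variance trend on the spread between cells lessened. Matching used a caliper of 0.5 SD within plate. No doublet caller was run, and the reads carry no strand, so overlapping genes cannot be told apart.

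Genes named were the 15 largest rises and 10 largest falls of one sign in 4 plates (5 falls met this), the tested interleukin-1 list, called list genes and the 6 largest slopes each way. Other called genes and further list members were named after their values were seen. The members and lists were chosen with earlier results of these data known. Of the list symbols, 8 were not in the table. Some genes counted among the calls are not reported here by name.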

Additional observations from a re-analysis of the deposited data

Results flagged for a closer look

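Il1b was also found outside the neutrophils. Of the 41 cells below the neutrophil sum, 23 had Il1b above 0 (56.1%, exact 95% binomial interval 39.8% to 71.5%), with a median of 1827 TPM (2.47 to 29851) and a median of 3076 genes detected. No control cells were available to set a level of background. Of these 41 cells, 6 had a neutrophil sum above 10000 TPM (the lowest 12704), and 5 of the 6 had Il1b above 0, while the other cells were at 5244 TPM or lower. Whether they differ from the neutrophils in Il1b was not tested.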

How the results depend on the processing

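Calls depended strongly on the processing. All called genes that were tested kept their sign under each adjusted alternative, and 36 of 37 without adjustment, in the cells in which they were selected. Between the classes, genes called higher and lower numbered 31 and 6. They numbered 7 and 0 in matched cells by mean log2(TPM + 1) and 0 and 0 by log2 of the mean; 0 and 0 with a pseudocount of 0.1, with 10, without a filter on low values, with immediate early genes as a further covariate and without the replicate block; 1 and 0 with a filter at 25% of cells and with plates as units; 334 and 1122 without adjustment; 218 and 129 adjusted for genes detected only; 4 and 0 with a neutrophil sum of at least 50000 TPM; 12 and 3 without cycling cells; and 12 and 1 in limma without trend and robust options. With Il1b at least 10 TPM against 0, 27 rose and 1 fell. Leaving out a replicate gave 0 to 3 and 0 to 1. Leaving out plates 1 to 4 in turn gave 3, 2, 8 and 6 higher and 0, 0, 5 and 0 lower. With at least 1000 genes per cell, 32 rose and 5 fell. Chosen after seeing the data, a squared granule term gave 4 and 1, granule classes of equal size beside the mean 10 and 2, and a variance trend on the spread between cells 24 and 9, with 26 of the 37 genes shared.

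No named gene was called under all of the 23 alternatives adjusted for the granule mean or matched on it. Of the 37 genes called between the classes, 2 were called in 0 of these, 13 in 1 or 2, 10 in 3 to 5, 9 in 6 to 9 and 3 in 10 or more. Over the class differences of the called and named genes 1137 values stayed on the same side of the threshold, 701 lost it, 40 passed it and 3 changed sign beyond their SE or from a called value, all without adjustment (Irak3 -0.38, Pcmt1 -0.44, Itgam -1.04). Genes with a positive and a negative slope numbered 11 and 3. They numbered 10 and 1 with a pseudocount of 0.1, 2 and 0 with 10, 12 and 2 with a filter at 25% of cells, 11 and 4 with Il1b of at least 10 TPM, and 0 and 0 without a filter and with plates as units, and leaving out a replicate gave 0 and 0 to 1. Where a call changed, the cause was not tested. Both classes come from the same 2 replicates, so the fits pair them. Without the replicate block, the adjusted class means of the 2 replicates entered as 4 separate values.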
